A study of Mus musculus with 10 samples.

Results

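The guanylate-binding proteins (GBP) and the immunity-related GTPases (IRG) are 2 families of interferon-inducible enzymes that bind and hydrolyse GTP, and 10 of their genes were followed in the pancreas of newborn mice. They are Gbp2, Gbp3, Gbp6, Gbp7 and Gbp9 of the GBP family and Irgm1, Irgm2, Igtp, Iigp1 and Tgtp2 of the IRG family. They were taken by symbol from the 24062 genes counted in each library, and all 10 symbols were found. The libraries are those of the whole pancreas of 5 WT and 5 KSR23 mice, all on the C57BL/6 background and all at postnatal day 5, with 1 library per mouse. KSR23 mice carry the R23 allele, which places a cassette for both IL-23 subunits at ROSA26 behind a STOP signal that Cre removes, together with Cre recombinase driven by the human keratin 14 promoter, so that keratinocytes are the intended source of IL-23. WT mice were littermate controls. The comparison asks how RNA levels in the pancreas differ between mice that express IL-23 in the skin and their controls.

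GBP and IRG proteins defend cells against bacteria and protozoa that live inside membrane vacuoles. They assemble on the vacuole membrane, which can then break and release the microbe to the cytosol or to degradation. Their genes are known targets of interferon signalling: the receptors activate the kinases Jak1, Jak2 and Tyk2, which phosphorylate transcription factors of the STAT family, and these factors, together with Irf1 and Irf9, bind 2 kinds of site in promoters, the GAS and the ISRE. Within the IRG family, Irgm1, Irgm2 and Igtp are regulators that sit on the cell's own membranes and hold the effector GTPases, among them Iigp1 and Tgtp2, in the inactive state there. Nearly every cell type can express these genes after exposure to interferon.

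The members lie in a few clusters, that of Iigp1 being described with its values, and the positions are given on GRCm38, the assembly that mm10 names. Gbp7 (chr3:142530336-142550151), Gbp3 (chr3:142560016-142573213) and Gbp2 (chr3:142620663-142638008) lie in this order on the plus strand of chromosome 3. A further GBP gene, Gbp2b, lies between Gbp3 and Gbp2. Gbp9 (chr5:105076464-105110357) and Gbp6 (chr5:105270702-105295871) are on the minus strand of chromosome 5. On chromosome 11, Irgm1 (chr11:48865245-48871420) and Tgtp2 (chr11:49057196-49064212) are on the minus strand, and Igtp (chr11:58199556-58207592) and Irgm2 (chr11:58214977-58222783) are neighbours on the plus strand.

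RefSeq promoter windows on GRCm38.p6, which run from 250 bases before a transcript start to 50 bases after it, were given for 7 of the 10 members, and not for Gbp6, Gbp9 and Iigp1. These windows were searched on both strands for an ISRE core, the letters GAAA, any 2 bases and GAAA again (TTTC, any 2 bases and TTTC on the other strand), and for a GAS core, the letters TTC, any 3 bases and GAA, which read the same on both strands. All 7 members had the ISRE letters in a window (7 of their 8 windows, since Gbp3 has a pair of windows and the later of them holds none), against 1131 of 32851 windows in the genome, or 3.44%. The GAS letters were in the windows of Gbp7, Irgm2, Igtp and Tgtp2, against 8.30% of all windows. The stretches of 60 bases around the ISRE letters are printed for these 7 members. The first 4 lines have the ISRE letters in capitals, with overlapping matches run together, in Gbp2 (chr3:142620574-142620633, plus strand), Gbp3 (chr3:142559969-142560028, plus), Gbp7 (chr3:142530253-142530312, plus) and Irgm1 (chr11:48871421-48871480, minus). The last 3 lines have the GAS letters first and then the ISRE letters in capitals, in Irgm2 (chr11:58214883-58214942, plus), Igtp (chr11:58199492-58199551, plus) and Tgtp2 (chr11:49064253-49064312, minus). Each reads 5′ to 3′ along the gene's own strand.
Gbp2: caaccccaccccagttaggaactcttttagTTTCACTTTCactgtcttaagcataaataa
Gbp3: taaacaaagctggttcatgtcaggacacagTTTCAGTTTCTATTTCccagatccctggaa
Gbp7: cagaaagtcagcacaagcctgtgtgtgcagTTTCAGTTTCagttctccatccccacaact
Irgm1: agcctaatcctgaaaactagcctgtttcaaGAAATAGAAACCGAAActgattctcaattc
Irgm2: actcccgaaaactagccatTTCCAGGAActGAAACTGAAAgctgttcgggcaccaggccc
Igtp: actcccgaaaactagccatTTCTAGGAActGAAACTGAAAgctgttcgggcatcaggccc
Tgtp2: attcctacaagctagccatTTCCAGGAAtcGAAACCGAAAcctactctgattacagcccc

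The stretches of Irgm2 and Igtp had the same base at 58 of 60 positions, and that of Tgtp2 matched Irgm2 at 43 and Igtp at 42. In the promoters of Irgm2, Igtp and Tgtp2 the GAS letters end 2 bases before the ISRE letters begin. That arrangement was found in 5 windows of the whole set (0.0152%), and the other 2 belong to Tgtp1 and Gm12185, also on chromosome 11. The 3 chromosome 3 genes carry the ISRE letters in the TTTC orientation, and the 4 chromosome 11 genes in the GAAA orientation. The ISRE letters end 50 bases before the start in Gbp2, 44 in Gbp7, 55 in Irgm2, 25 in Igtp and 61 in Tgtp2. A match of letters is a description of the window, and whether a factor binds there was not measured.

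Gene counts summed to 26830235 to 33189132 per WT library and to 16715976 to 57784136 per KSR23 library, the lowest being KSR23 replicate 3. Il23a, which encodes the p19 subunit of the cassette, was at 0.179 ± 0.102 CPM in the controls and at 1.07 ± 0.138 CPM in mice with the transgene (mean ± SD, n = 5 per group, 2-sided exact permutation test, p = 0.00794). Il12b, which encodes the p40 subunit, overlapped between the groups, with 0 to 0.240 CPM in WT and 0.0889 to 0.327 CPM in KSR23 libraries (same permutation test, p = 0.0952). CPM here are counts per 1e6 counts on genes, with library sizes scaled by TMM. The 6 acinar marker genes of the exocrine pancreas (Cpa1, Cela1, Ctrb1, Ptf1a, Bhlha15 and Rbpjl) summed to 88360 CPM or more in the WT libraries and to 55870 CPM or more in the KSR23 libraries, so the labelled tissue was borne out in all 10 libraries. The 13882 genes that reached 5 counts in all 10 libraries were tested by the quasi-likelihood test of edgeR with Benjamini-Hochberg adjustment, from which all adjusted p-values below come.

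All 5 GBP members rose in KSR23 mice, between 1.62- and 3.24-fold as a ratio of mean CPM. All 4 IRG members that could be tested rose as well, between 2.70- and 4.95-fold. Tgtp2 missed the count minimum, with 2 counts in WT replicate 5, and its mean was 14.2-fold higher in KSR23 mice. Hence 9 of 9 tested members had an adjusted p under 0.05 and were higher, where 16.2% of all tested genes were. In 6 of them the log2 fold change (log2 FC) was over 1, a size that 2.95% of tested genes passed in this direction with an adjusted p under 0.05. In all 10 members every KSR23 mouse was above every WT mouse, which was so for 10.7% of tested genes. Since the RNA came from whole pancreas, more cells that express these genes and more RNA per cell cannot be told apart.

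**Figure D1:**
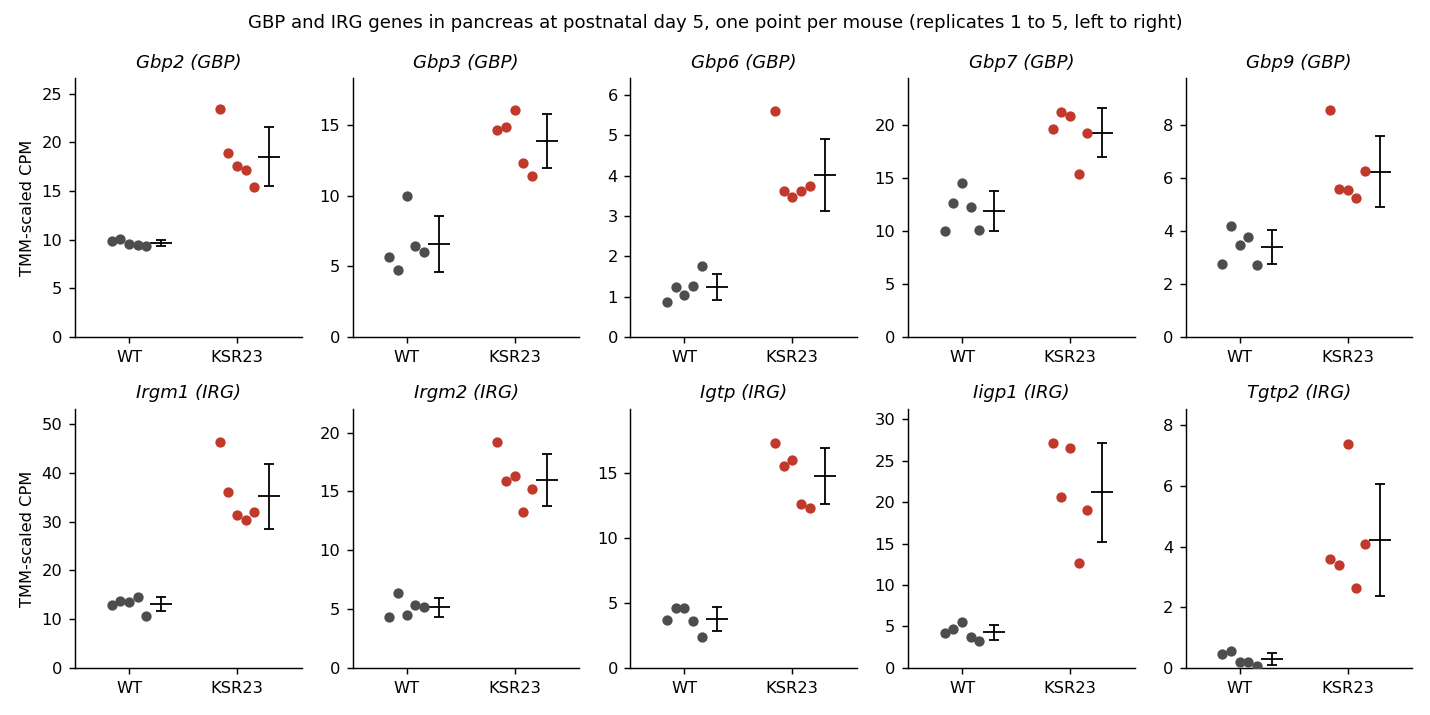
TMM-scaled CPM of the 10 members, with 1 panel per gene and 1 point per mouse, WT in grey and KSR23 in red, and the group mean with its SD (n = 5) as a bar beside the points. No panel shows overlap between the groups, and the groups are closest in Gbp7, where the highest WT mouse reached 14.5 CPM and the lowest KSR23 mouse 15.4 CPM.

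Among the regulators, Irgm1, which also acts in autophagy and in macrophage defence against mycobacteria, had 12.9, 13.6, 13.5, 14.6 and 10.7 CPM in WT replicates 1 to 5. In KSR23 replicates 1 to 5 it had 46.5, 36.2, 31.3, 30.3 and 31.9 CPM. Replicate 1 stood highest of the KSR23 mice, and the other 4 were within 6 CPM of each other. The mean rose from 13.1 ± 1.43 to 35.2 ± 6.66 CPM (log2 FC 1.43, 95% interval 1.19 to 1.67, adjusted p = 3.45e-08).

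Irgm2, a regulator found at the Golgi, had 4.31, 6.35, 4.53, 5.32 and 5.22 CPM in the WT mice and 19.2, 15.9, 16.3, 13.2 and 15.2 CPM in the KSR23 mice. Every KSR23 mouse was above 13 CPM and every WT mouse under 7 CPM. The log2 FC was 1.63 (95% interval 1.36 to 1.90, adjusted p = 2.04e-08).

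Igtp, also called Irgm3, is a regulator of the endoplasmic reticulum and lipid droplets. Its levels were 3.72, 4.57, 4.64, 3.58 and 2.35 CPM in the WT mice, replicate 5 being the lowest. The KSR23 mice had 17.3, 15.5, 15.9, 12.6 and 12.3 CPM, and the lowest of them was over 2.5 times the highest WT mouse. The log2 FC was 1.96 (95% interval 1.63 to 2.29, adjusted p = 3.45e-08), the largest among the 3 regulators, although its interval overlapped that of Irgm2.

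Of the effectors, Iigp1, also called Irga6, is among the IRG proteins that load onto the vacuole of Toxoplasma gondii. The gene is on chromosome 18 of GRCm38, from 60373616 to 60392634 on the plus strand. It had 4.21, 4.74, 5.55, 3.71 and 3.20 CPM in the WT mice and 27.1, 20.6, 26.5, 12.6 and 19.1 CPM in the KSR23 mice. The KSR23 mice differed more among themselves than in most members (SD 5.97 CPM around 21.2 CPM), with replicate 4 lowest, yet that mouse remained above every WT mouse. Its log2 FC of 2.30 (95% interval 1.90 to 2.69, adjusted p = 3.77e-08) was the largest of the 9 tested members, and 0.375% of tested genes had a larger one.

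Tgtp2, also called Irgb6, is an effector that reaches the vacuole early. It had 13, 16, 6, 6 and 2 counts in the WT libraries, or 0.0745 to 0.549 CPM. In the KSR23 libraries it had 142, 114, 132, 106 and 229 counts, or 2.64 to 7.38 CPM, with replicate 3 the highest by CPM. WT levels thus lay near the limit that 3 counts set (0.0536 to 0.168 CPM across libraries), and all KSR23 levels lay far above it. The mean rose from 0.297 ± 0.198 to 4.21 ± 1.85 CPM (2-sided exact permutation test over 252 splits of the mice, p = 0.00794, the smallest p that 5 against 5 allow).

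The gene has a near-identical neighbour, Tgtp1, and 85.2% of the 75-base windows of its transcript occur there too, so that reads could be counted on either copy only where they differ. Tgtp2 took 10 to 43.3% of the pair's counts in the WT libraries, where exact 95% binomial intervals ran from 1.23 to 62.6%, and 42.4 to 61.7% in the KSR23 libraries. The counts of the pair summed gave a log2 FC of 2.99 (adjusted p = 4.22e-08), and Tgtp1 alone gave 2.45. How the rise divides between the copies is uncertain.

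Among the GBP genes, Gbp2, a lipid-anchored protein that gathers on bacterial and protozoan vacuoles, had 9.92, 10.1, 9.59, 9.42 and 9.39 CPM in the WT mice. These 5 values had an SD of 0.301 CPM, 3.11% of their mean, the smallest relative spread of any member in the WT mice. The KSR23 mice had 23.5, 18.9, 17.6, 17.2 and 15.4 CPM. The log2 FC was 0.94 (95% interval 0.71 to 1.16, adjusted p = 3.08e-06).

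Gbp3 had 5.64, 4.77, 9.98, 6.45 and 6.00 CPM in the WT mice, replicate 3 being well above the other 4. In the KSR23 mice it had 14.7, 14.9, 16.1, 12.3 and 11.4 CPM, so the highest WT mouse came within 2 CPM of the lowest KSR23 mouse. Its log2 FC was 1.07 (95% interval 0.73 to 1.41, adjusted p = 6.60e-05).

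Gbp7, which has been linked to assembly of the NADPH oxidase on vacuoles, had 9.95, 12.7, 14.5, 12.3 and 10.1 CPM in the WT mice and 19.7, 21.2, 20.9, 15.4 and 19.3 CPM in the KSR23 mice. This was the smallest rise of the 9 tested members, with a log2 FC of 0.69 (95% interval 0.45 to 0.94, adjusted p = 0.000197). It still stood at the 94.2 percentile of log2 FC among all tested genes.

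The chromosome 5 genes were scarcer. Gbp6 had 0.876, 1.24, 1.05, 1.26 and 1.75 CPM in the WT mice and 5.59, 3.62, 3.47, 3.61 and 3.73 CPM in the KSR23 mice, replicate 1 standing apart from the other 4. The log2 FC was 1.70 (95% interval 1.25 to 2.15, adjusted p = 7.94e-06), the largest of the GBP members. Gbp10 holds 51.7% of the 75-base windows of Gbp6, so the reads of this pair are also hard to divide. Gbp10 had 0 to 3 counts in the WT libraries and 4 to 18 in the KSR23 libraries, few beside the 25 to 47 and 62 to 222 counts of Gbp6, and the pair summed gave a log2 FC of 1.77 (adjusted p = 3.47e-06).

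Gbp9 had 2.77, 4.19, 3.48, 3.78 and 2.72 CPM in the WT mice and 8.58, 5.60, 5.54, 5.25 and 6.27 CPM in the KSR23 mice. Replicate 1 was again the highest KSR23 mouse. The log2 FC was 0.89 (95% interval 0.53 to 1.24, adjusted p = 0.00067). The 5 GBP members had a median log2 FC of 0.94 and the 4 tested IRG members 1.80, while the median over all tested genes was -0.0056.

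Per length of transcript, the members could be compared with each other. In WT mice Irgm1 had the highest level, 5.79 CPM per kb, followed by Gbp2 (3.85), Gbp3 (2.45), Gbp7 (2.12), Igtp (1.86), Irgm2 (1.49), Iigp1 (1.37), Gbp9 (0.773), Gbp6 (0.474) and Tgtp2 (0.106). The ranges of the 5 WT mice did not overlap between Irgm1 and Gbp2, Gbp2 and Gbp3, Iigp1 and Gbp9, or Gbp6 and Tgtp2, whereas the other neighbours in this order overlapped. In KSR23 mice Irgm1 stayed highest at 15.6 CPM per kb, and it was followed by Gbp2 (7.36), Igtp (7.29), Iigp1 (6.79), Gbp3 (5.17), Irgm2 (4.62), Gbp7 (3.43), Gbp6 (1.54), Tgtp2 (1.5) and Gbp9 (1.43). Here the ranges separated Irgm1 from Gbp2, Irgm2 from Gbp7 and Gbp7 from Gbp6 alone. Igtp, Iigp1, Gbp6 and Tgtp2 moved up in this order, and Gbp3, Gbp7 and Gbp9 moved down.

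**Figure D2:**
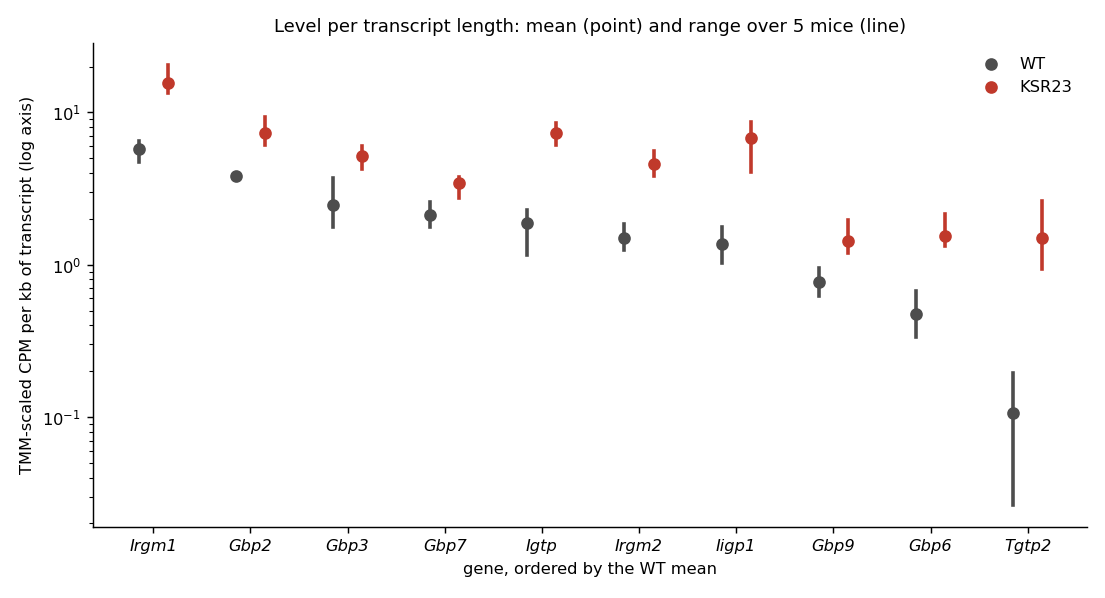
TMM-scaled CPM per kb of transcript on a log axis, with points for group means and lines for the range over 5 mice, WT in grey and KSR23 in red, ordered by the WT mean. Irgm1 is highest in both groups (5.79 and 15.6 CPM per kb), and Tgtp2 goes from the lowest WT level (0.106) to a KSR23 level (1.5) beside those of Gbp6 and Gbp9. Tgtp2 and Gbp6 can be understated, because much of their transcripts also occurs in other genes.

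The balance between the families differed between the groups. The 5 IRG members held 41.8 to 47.5% of the summed CPM of the 10 members in WT mice and 57.0 to 61.2% in KSR23 mice, without overlap. The IRG sum went from a mean of 26.6 to 91.3 CPM (3.44-fold) and the GBP sum from 32.8 to 61.9 CPM (1.89-fold). In single mice, the log2 ratio of Iigp1 to Gbp7 lay between -1.71 and -1.23 in WT mice and between -0.29 and 0.46 in KSR23 mice. That of Igtp to Gbp2 lay between -1.97 and -1.04 in WT mice and between -0.44 and -0.14 in KSR23 mice. By contrast, the log2 ratio of the neighbours Irgm2 and Igtp lay between -0.03 and 1.13 in WT mice, and the KSR23 values, 0.03 to 0.30, fell within that range. These pairs were chosen after their values were seen.

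Within the KSR23 group, replicate 1 was the highest KSR23 mouse in 7 of the 10 members, and replicate 4 was the lowest in 6. Gbp3 and Tgtp2 were highest in replicate 3 and Gbp7 in replicate 2, and Gbp2, Gbp3 and Igtp were lowest in replicate 5. The 10 members summed to 185.6, 155.7, 161.0, 125.2 and 138.6 CPM in KSR23 replicates 1 to 5 and to 54.8, 62.8, 67.1, 60.5 and 51.6 CPM in the WT replicates. The lowest KSR23 sum was thus well above the highest WT sum. In the WT mice, replicate 5 was the lowest in 6 members.

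Among all tested genes that are no member, those whose profile over the 10 libraries was among the 5 nearest to the mean profile of the 9 tested members included Tap1 (root mean square distance 0.151 on the log2 scale), Oasl2 (0.165), Hkdc1 (0.167) and H2-T23 (0.169), where the median tested gene had a distance of 0.747. Tap1 transports peptides for presentation by MHC class I, Oasl2 is an antiviral protein of the oligoadenylate synthetase family, Hkdc1 is a hexokinase, and H2-T23 is a non-classical MHC class I molecule. Of the members themselves, Irgm1 was the nearest to their common profile (0.107) and Iigp1 the farthest (0.490). The difference between the groups dominates these distances.

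Of 19 other genes of these families, 7 passed the count minimum and all 7 rose (16.2% of all tested genes did). They were Tgtp1, the copy of Tgtp2 (log2 FC 2.45), Gm4951 (2.21), Gbp4 (1.73), Ifi47, a further IRG gene (1.47), and F830016B08Rik (1.47). The others were Gbp5, a GBP that promotes inflammasome assembly (1.37), and Gbp8 (1.33). Gm4951 and F830016B08Rik are on chromosome 18, the latter between Gm4951 and Iigp1. The highest adjusted p among them was 0.00487. Their median log2 FC was 1.47, where that of the members was 1.43.

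Of the 12 other family genes that missed the count minimum, Gm12250, also called Irgb10, had 6, 4, 14, 4 and 9 counts in the WT libraries and 139, 91, 31, 76 and 82 in the KSR23 libraries. Gbp2b, the neighbour of Gbp2 on chromosome 3, had 2, 3, 17, 20 and 15 counts in the WT libraries and 146, 204, 10, 151 and 35 in the KSR23 libraries. Gbp2b therefore differed from the members in that the groups overlapped. KSR23 replicates 3 and 5 were at 0.559 and 0.625 CPM and the WT mice at up to 0.645 CPM. The groups also overlapped in Gbp10, Gbp11, Gm5431, 9930111J21Rik1, Mx1 and Mx2. The ratio of mean CPM was lowest of these in 9930111J21Rik1 (1.38, 2-sided exact permutation test, p = 0.333). The antiviral dynamin-like genes Mx1 and Mx2 had at most 22 counts in any library. Gvin1 and Gm4070 were listed at 0 in all 10 libraries, but 98.3% of the 75-base windows of each occur in other genes, mostly in each other, so that their level could not be read from uniquely aligned reads.

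**Figure D3:**
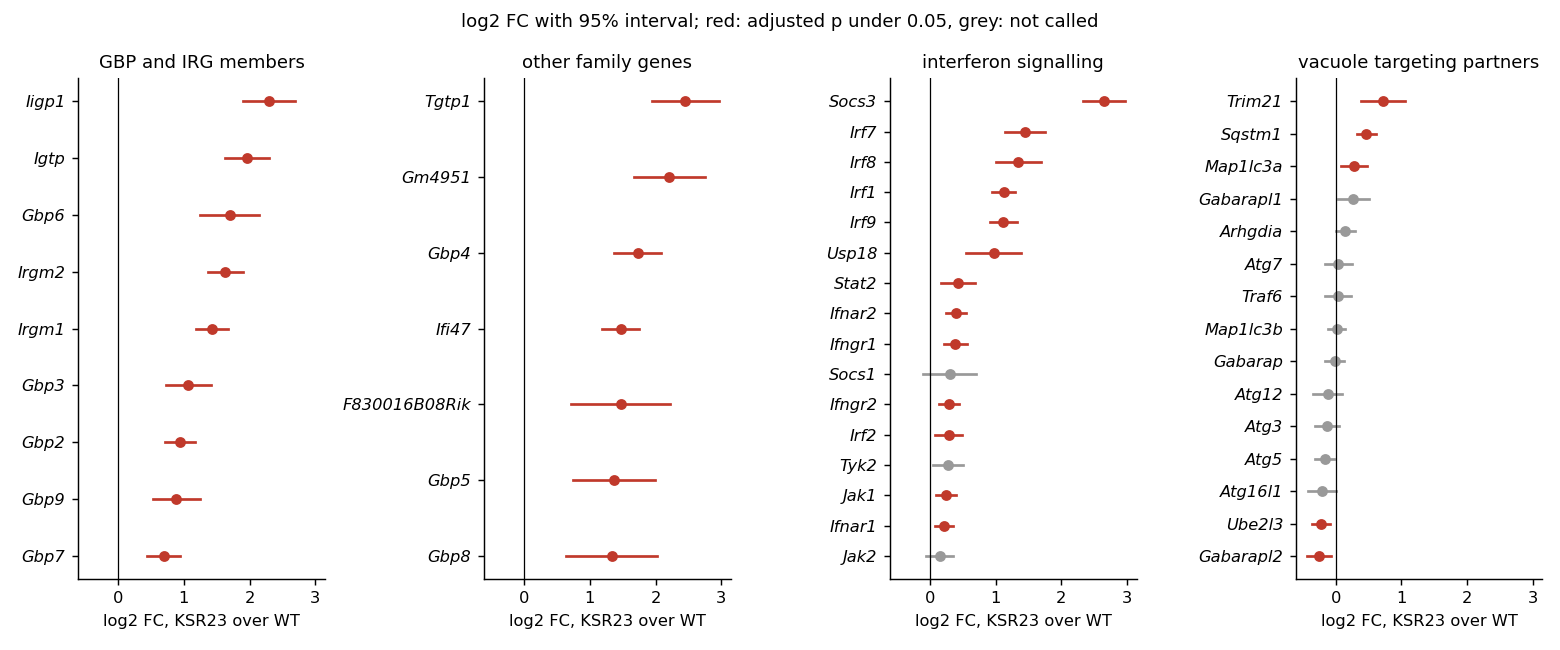
Log2 FC, KSR23 over WT, with 95% intervals from edgeR's quasi-likelihood fit, for the tested members, other tested genes of the families, interferon signalling genes and proteins that bring the GTPases to vacuoles. Red marks an adjusted p under 0.05 and grey the rest; the members lie between 0.69 and 2.30, and the vacuole partners between -0.25 and 0.72.

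Of 18 genes of interferon signalling, 16 were tested, 13 rose and none fell (16.2% and 14.8% of all tested genes did). Among the transcription factors, the log2 FC was 1.45 for Irf7, 1.34 for Irf8, 1.12 for Irf1 and 1.12 for Irf9. Stat2 (0.42), the receptor chains Ifnar2 (0.40), Ifngr1 (0.39), Ifngr2 (0.29) and Ifnar1 (0.22), Irf2 (0.29), which restrains Irf1 targets, and the kinase Jak1 (0.25) had smaller rises. Among feedback inhibitors of cytokine signalling, Socs3 rose by 2.65 on the log2 scale. The paper also reported raised IL-22 in serum and more pSTAT3-positive cells in the pancreas of KSR23 mice. Which signal Socs3 follows here was not tested. Usp18 rose by 0.97, whereas Socs1 had a log2 FC of 0.30 (adjusted p = 0.251). The kinases Tyk2 (0.28, adjusted p = 0.0604) and Jak2 (0.15, adjusted p = 0.254) did not pass the test either. The calls of Ifnar1 and Irf2 were lost without KSR23 replicate 1, and that of Irf2 also without any of WT replicates 1 to 4 (adjusted p up to 0.0951). With the replicate number as a block, neither Ifnar1 (adjusted p = 0.0560) nor Irf2 (adjusted p = 0.0702) passed. Tyk2 passed the test without WT replicate 3, KSR23 replicate 2 or KSR23 replicate 3, with libraries scaled by their totals alone (adjusted p = 0.0184) and with DESeq2 (adjusted p = 0.0445), and Socs1 passed without WT replicate 1.

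Of the ligands, Ifng, which encodes interferon gamma, had 1 count in 1 of the 5 WT libraries, and 4 and 2 counts in 2 of the 5 KSR23 libraries. Ifnb1, which encodes interferon beta, was at 0 in all 10 libraries. No difference in the RNA of either was detectable in the pancreas at this depth. The paper reported raised interferon gamma protein in the serum of KSR23 mice of the same age, which pancreas RNA does not measure.

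Of 15 genes for proteins that bring GBP and IRG proteins to vacuoles or act with them there, 3 rose, 2 fell and 10 did not pass the test, where 16.2% of all tested genes rose and 14.8% fell, so these shares were near the background. Trim21, a ubiquitin ligase, rose by 0.72 and Sqstm1, the ubiquitin receptor p62, by 0.46 on the log2 scale. Map1lc3a, an LC3 protein, rose by 0.28. Gabarapl2, of the same family, fell by 0.25 and Ube2l3, a ubiquitin-conjugating enzyme, fell by 0.23, and neither passed the test when libraries were scaled by their totals alone (adjusted p = 0.186 and 0.184). Map1lc3a did not pass without WT replicate 2 or 3 or KSR23 replicate 4 (adjusted p up to 0.0957), nor Gabarapl2 without replicate 1 of either group, WT replicate 3 or KSR23 replicate 2, nor with the replicate block (adjusted p = 0.0753). Of the genes not called, those of the largest absolute log2 FC were Gabarapl1 (0.27, called without KSR23 replicate 2), Atg16l1 (-0.21), Atg5 (-0.17) and Arhgdia (0.15). The list's median log2 FC was 0.02, where that of the members was 1.43.

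Genes of the 2 families were left out when the nearest tested genes around and between the members' clusters were taken. The 7 other family genes that were tested lie nearer to the members or between them, and all 7 rose (log2 FC 1.33 to 2.45). The nearest tested genes outside the families mostly did not pass the test. On chromosome 3, Pdlim5 fell by 0.28 on the log2 scale (adjusted p = 0.0400), and Gtf2b on the other side had 0.11. Around the chromosome 5 genes, Abcg3 had 0.53 and Lrrc8b -0.28, neither called. On chromosome 11, Trim7, 13 kb from Irgm1, had -0.32, Btnl9 0.04, Psme2b, between Irgm1 and Tgtp2, 0.38, Mrpl22, 20 kb from Igtp, -0.24 and Zfp692 -0.15, none of them called. By Iigp1, Chsy3 rose by 0.86 (adjusted p = 0.0231) at a distance of 838 kb, and Smim3 had -0.31 and was not called. The call of Pdlim5 was lost without any of WT replicates 2 to 5 or KSR23 replicates 4 and 5 (adjusted p up to 0.103), with libraries scaled by their totals alone (0.236) and with the replicate block (0.0636), that of Chsy3 without WT replicate 1 or 4 or KSR23 replicate 1 (adjusted p up to 0.0731), and Mrpl22 passed the test without WT replicate 2 (adjusted p = 0.0475). Thus, with all 10 mice, 9 of these 11 genes outside the families did not pass the test, 1 rose and 1 fell. Among all tested genes 31.0% were called.

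Markers of immune cells moved with the members in part. Among all tested genes, 16.2% were called higher and 14.8% lower. Macrophage markers summed to 428 to 525 CPM in WT mice and to 475 to 774 CPM in KSR23 mice. Of them, 9 of 11 rose, C1qa fell (log2 FC -0.80) and Mrc1 did not pass the test (0.03). The rises were 1.85 for Cd14, 1.35 for Fcgr1, 0.88 for Itgam, 0.80 for C1qb, 0.73 for Lyz2, 0.71 for C1qc, 0.61 for Csf1r, 0.59 for Cd68 and 0.55 for Emr1 on the log2 scale. In 5 of the 11 (Cd14, Fcgr1, C1qb, C1qc and Cd68) every KSR23 mouse was above every WT mouse, which was so for 10.7% of tested genes. KSR23 replicate 5 had a macrophage sum of 475 CPM, within the WT range, with a member sum of 138.6 CPM, and it was above every WT mouse in those same 5 genes, for example in Cd14 (28.6 CPM, against at most 12.0 in WT mice). Neutrophil markers summed to 11.1 to 40.0 CPM in WT mice and to 36.6 to 353 CPM in KSR23 mice, and 5 of the 7 tested rose: S100a9 (log2 FC 2.48), S100a8 (2.38), Camp (2.37), Ngp (2.16) and Retnlg (1.91), of which S100a8, S100a9 and Retnlg did not overlap between the groups. Mpo (1.42) and Elane (1.48) did not pass the test. KSR23 replicate 4 had a neutrophil sum of 36.6 CPM, within the WT range, with a member sum of 125.2 CPM, although it too was above every WT mouse in those 3 genes. KSR23 replicate 3, with 353 CPM of neutrophil markers, was not the highest mouse in the member sum.

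T and NK cell markers summed to 4.85 to 6.11 CPM in WT and 3.27 to 5.93 CPM in KSR23 mice, a sum in which single markers went opposite ways. Cd3e, most of the WT sum, fell to 0.362 of its WT mean (adjusted p = 5.77e-05), whereas Cd3g rose by 0.87 on the log2 scale (adjusted p = 0.0321) and Cd4 had 0.36 and was not called. Of those not tested, Cd3d had 2 to 5 counts in the WT and 11 to 30 in the KSR23 libraries, Klrb1c 0 to 3 and 2 to 12, and Cd8a 0 and 1 to 4. B cell markers summed to 2.77 to 5.48 and 2.61 to 5.19 CPM, with Pax5 at 0 in all 10 libraries, and none of the 3 tested was called. Endothelial markers summed to 228 to 241 and 223 to 253 CPM, with Tie1 (log2 FC 0.33), Kdr (0.31) and Flt1 (0.30) higher and Cdh5 (-0.47) and Tek (-0.27) lower. The acinar marker sum was lower in KSR23 mice (55870 to 69870 CPM, against 88360 to 99770 in WT mice). The islet sum was lower too (4995 to 6296 against 8113 to 11370 CPM), and the duct sum was higher (1541 to 1702 against 931 to 1044 CPM). Singly, 5 of 6 acinar markers fell (14.8% of all tested genes did), and Ctrb1, most of that sum, was not called (log2 FC -0.13). Of 7 islet markers, 6 fell and Ppy rose (0.95). Of 6 duct markers, 5 rose (16.2% of all tested genes did), among them Spp1, most of that sum, and Krt19 was not called (-0.05). The part of cell composition in the members' rise was not tested.

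**Figure D4:**
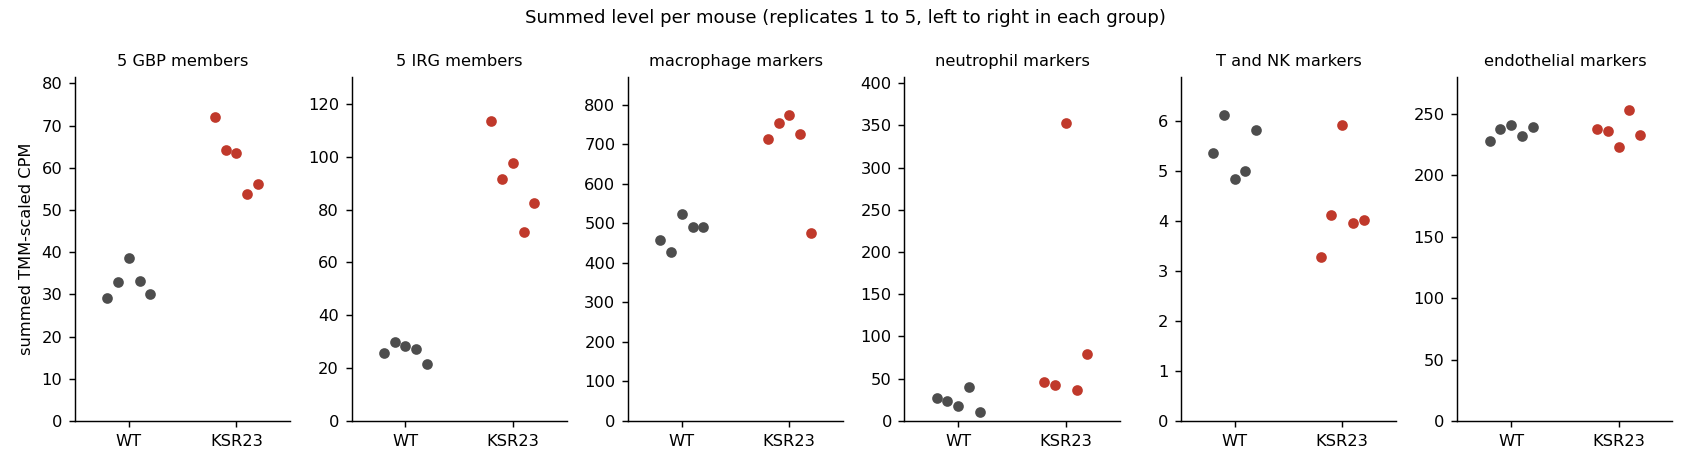
Summed TMM-scaled CPM per mouse of the 5 GBP members, the 5 IRG members and 4 marker lists, WT in grey and KSR23 in red, replicates 1 to 5 from left to right. The member sums separate the groups (GBP 29.2 to 38.6 against 53.8 to 72.0 CPM, IRG 21.6 to 29.8 against 71.4 to 113.7 CPM). The macrophage, neutrophil, T and NK cell, and endothelial sums overlap, although 5 of 11 macrophage and 3 of 7 neutrophil markers taken singly do not. Every KSR23 library was above every WT library in 10.7% of all tested genes. The acinar, islet and duct sums, which are not shown, also separate the groups.

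Over all promoters, tested genes with the ISRE letters in a window were called higher in 95 of 375 cases (25.3%), and those without in 1614 of 10067. The tested members with a promoter window are among the former. Of 8 other family genes with a window, 5 had the ISRE letters, and Ifi47, which rose, had none. Of 17 interferon signalling genes with a window, 3 had them. Gm12185, which shares the GAS and ISRE arrangement of Irgm2, Igtp and Tgtp2, had 0 counts in all 5 WT libraries. It had 15, 3, 1, 11 and 52 counts in the KSR23 libraries. Whether these letters bear on any rise was not tested.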

How the data were processed

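The authors prepared libraries from 100 pg of total RNA with an oligo-dT primed, amplified method (SMART-Seq v4 and Nextera XT) that does not mark strand, and sequenced single-end 75-base reads. Per the labels and the submitters' processing notes, reads were aligned to mm10 with TopHat2 2.1.0 and counted with HTSeq 0.6.1p1, and the deposited values are raw counts per gene and mouse, not normalized. The notes also name FastQC and edgeR 3.18.1. The annotation file and strand setting are not given in the sources used here. No molecular identifiers were used, so limits and intervals from counts cover counting error only.

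The 5 tallies that name no gene were left out. The 13882 of 24062 genes that reached 5 counts in all 10 libraries were scaled by TMM and compared with edgeR 4.0.16 (quasi-likelihood test, Benjamini-Hochberg adjustment over all of them, threshold 0.05) in R 4.3.3, after a test on simulated data. The SE of a log2 FC is its size over the square root of F, and log2 CPM used a prior count of 2. Transcript lengths and positions are from GENCODE M21 and promoters from RefSeq. Windows of 75 bases were matched exactly to other genes. Libraries of a group differed by a chi-square per degree of freedom of at least 11.4, so none was a copy. Labels number the replicates and do not state separate animals beyond that. P-values then measure the spread between these samples. The gene and marker lists and the members were chosen with earlier results of these data known. The rule for named genes took all members, called list genes and list genes not called (up to 4 where there were more than 3). It also took the 5 genes nearest in profile and the nearest tested neighbours outside the families. The acinar, duct and islet markers are given by their sums and counts of calls, with values for few of them. Other genes named were chosen after their values were seen. Alternatives were RLE size factors, library size alone or without the 50 highest genes, other filters, the likelihood ratio test, DESeq2 1.42.0, a replicate block, leaving out each mouse and, added after seeing the data, summed copies. Values of 1 gene under the naming rule are not reported here.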

Additional observations from a re-analysis of the deposited data

Results flagged for a closer look

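In groups of 5 mice, a mouse was singled out where its gap to the nearest of the others exceeded Dixon's 95% critical value. Of 112 groups, 8 held such a mouse, where chance gives about 1 in 20, or 5.6. Among the members this was Gbp6, at 5.59 CPM in KSR23 replicate 1 and 3.47 to 3.73 CPM in the other KSR23 mice. Among other family genes, Gbp8 had 0.161 CPM in WT replicate 4 (others 0.782 to 0.962) and 2.52 CPM in KSR23 replicate 3 (others 1.45 to 1.71), and Tgtp1 had 1.20 CPM in WT replicate 2 (others 0.516 to 0.671). Socs1 had 3.26 CPM in WT replicate 1 (others 1.86 to 1.93), and Ube2l3 had 45.9 CPM in KSR23 replicate 3 (others 41.0 to 42.3). The macrophage marker sum was 475 CPM in KSR23 replicate 5 (others 713 to 774), and the neutrophil marker sum 353 CPM in KSR23 replicate 3 (others 36.6 to 79.1).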

How the results depend on the processing

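Each of the 10 members stayed higher in KSR23 mice and past its threshold in all 179 recomputations. Tgtp2 had 16 of these, none by the likelihood ratio test, DESeq2 or the replicate block. Leaving out 1 mouse gave Tgtp2 an exact permutation p of 0.0159 each time, a value fixed by groups that do not overlap. Per setting, 9 or 10 members were called, 10 where Tgtp2 passed the count filter: with no filter (log2 FC 3.77), with edgeR's own filter, and without WT replicate 5. The highest adjusted p of a tested member was 0.00316 (Gbp9, replicate block). Leaving out 1 mouse gave 3497 to 4173 genes called in all. With libraries scaled by totals alone, 5 vacuole partners were higher, not 3, and the median log2 FC of all tested genes was 0.087. With no filter, 11 other family genes were called, not 7. Leaving out 1 mouse gave 11 to 14 interferon signalling genes and 2 to 4 vacuole partners. Labels share replicate numbers 1 to 5, but same-numbered mice did not deviate together over all tested genes (r from -0.111 to 0.0661). The labels do not say whether the number marks a shared litter, and these r values cannot settle it. With the replicate number as a block, 9 members, 7 other family genes, 11 signalling genes, 3 vacuole partners and 3749 genes in all were called. The depth limits Tgtp2, Gbp10 and Ifng, at a few counts in WT mice.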
